A study of Mus musculus with 5 samples.

Results

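The 10 genes described here make, break down or sense prostaglandins. They were chosen by name, with earlier results of these data known and with no threshold on a measured value: the cyclooxygenase genes Ptgs1 and Ptgs2, the synthase genes Ptges and Ptgis, the breakdown enzyme gene Hpgd, the prostaglandin E receptor genes Ptger1, Ptger2, Ptger3 and Ptger4, and the prostaglandin F receptor gene Ptgfr. All 10 were found among the 18044 genes of the deposited table. The RNA came from wild-type C57BL/6 mouse embryos at stage E18.5. Tissue from where the renal pelvis joins the kidney was taken from the embryos, pooled, dispersed with collagenase and sorted with an antibody against the channel protein HCN3. Of the 5 libraries, 2 are labelled HCN3-positive, whose source the submitters call urinary tract pacemaker cells, and 3 are labelled HCN3-negative. All groups share the strain, the stage and the sorting, and no genotype or drug differs between them. The labels do not say whether the replicates are separate pools, so the p-values cover no more than the spread among these 5 libraries, which may be technical.

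Prostaglandins are short-lived lipid signals made from arachidonic acid. Phospholipases release the acid from membranes, a cyclooxygenase turns it into prostaglandin H, and terminal synthases turn that into prostaglandin E, prostacyclin, thromboxane and others. They leave the cell, act on G protein-coupled receptors nearby and are taken up and oxidized. In the kidney and ureter they are known for effects on blood flow, on salt and water handling in the collecting duct and on contraction of pelvic and ureteral smooth muscle.

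The values of the deposited table were taken as the authors' read counts divided by a size factor, called normalized counts below. Reads assigned to genes numbered 24588864 to 39034478 per library, and all 10 genes had a mean normalized count above 5, the minimum for testing. The authors' own comparison in that table does not follow the sample titles. Its fold is the average of 3 libraries (HCN3-positive 2 with HCN3-negative 1 and 3) divided by that of the other pair (HCN3-positive 1 with HCN3-negative 2) in all 18047 rows, within a relative tolerance of 0.01, and any other division matched at most 8.03% of rows. The pair is called the first set and the trio the second set, and they have the sizes of the labelled groups. The deposited table is named as a comparison of HCN3-negative with HCN3-positive, but it does not say which set is HCN3-positive. For Hcn3 itself, HCN3-positive 1 had 0 reads (3 reads would be a normalized count of 4.23), HCN3-positive 2 a normalized count of 44.5, and HCN3-negative 1, 2 and 3 had 103, 32.2 and 41.9. The transcript thus went against the label of HCN3-positive 1, and every direction by label below rests on titles that this transcript did not bear out. Both comparisons are therefore given, the titles' and the table's.

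Between the sets, Ptgs1 and Hpgd were higher in the first set by 5.08-fold and 17.0-fold, and Ptgis was 8.56-fold higher in the second set, as ratios of means. Ptger1 was 2.56-fold higher in the first set with an adjusted p close to the threshold. Ptgs2, Ptges, Ptger2, Ptger3, Ptger4 and Ptgfr did not pass. By limma with Benjamini-Hochberg adjustment over 16579 genes, 3 of the 10 were thus higher in the first set, where 10.6% of all genes tested were, and 1 was higher in the second, where 9.88% were (4 of 10 in either direction, against 20.5%). Between the labels 0 of 10 passed, and 0% of all genes did (157 of 16579, or 0.947%, had an unadjusted limma p under 0.05, and none of the 10 was among them). There edgeR called 0 genes (165 unadjusted), limma-voom 0 (108) and DESeq2 10 (464), none of them among these 10.

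**Figure D1:**
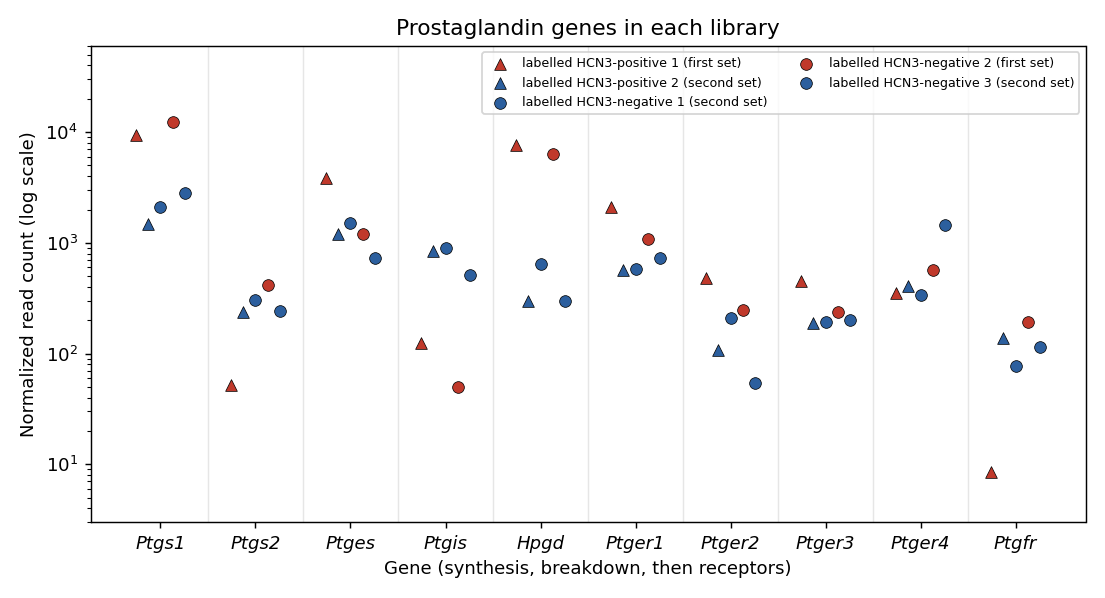
Normalized read count (vertical, log scale) of the 10 prostaglandin genes (horizontal) in each of the 5 libraries. Triangles are libraries labelled HCN3-positive, circles those labelled HCN3-negative, red the first set and blue the second set; Ptgs1 and Hpgd lie higher in both red points, and Ptgis lower, while triangles and circles are mixed for 9 of the 10 genes.

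Ptgs1 (chromosome 2, 36230426 to 36252272, plus strand, mm10, GENCODE M21 gene model) encodes cyclooxygenase 1, the form that many cells carry constantly. The first set had normalized counts of 9468 (HCN3-positive 1) and 12291 (HCN3-negative 2). The second set had 1492 (HCN3-positive 2), 2106 (HCN3-negative 1) and 2829 (HCN3-negative 3). Both libraries of the first set lay above all of the second, and each label had 1 library of the first set. The log2 fold change on the log2(normalized count + 1) scale, first minus second set, was 2.38 (SE 0.29, limma adjusted p = 0.00259). Leaving out any 1 library kept the call (limma adjusted p 0.00276 to 0.0428). By label the means were 5480 ± 5640 (SD, n = 2) and 5742 ± 5683 (SD, n = 3), a difference far inside the spread. Both labels mix the sets, so this spread includes the difference between the sets. With the set as a model term, the log2 fold change by label was -0.57 (limma unadjusted p = 0.0480). In that fit 544 of 16579 genes had an unadjusted limma p under 0.05, and 0 passed after adjustment.

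Ptgs2 (chromosome 1, 150100031 to 150108227, plus strand) encodes cyclooxygenase 2, the form induced by stimuli. Normalized counts of 52.2 and 236 were found in HCN3-positive 1 and 2, and of 303, 414 and 243 in HCN3-negative 1, 2 and 3. It was the only one of the 10 whose labelled groups did not overlap, with HCN3-positive below. Such a gap was seen in 10.8% of all genes tested, 5.34% with HCN3-positive above and 5.44% with it below, and here the gap between the nearest libraries was narrow (236 and 243). The log2 fold change, labelled positive minus negative, was -1.48 (SE 0.81), with a limma adjusted p of 1.00, and it was -0.40 without HCN3-positive 1. Between the sets the values overlapped, and the log2 fold change of -0.81 (SE 0.86) had a limma adjusted p of 0.567. Within the first set the libraries labelled positive and negative stood at 52.2 and 414, and within the second at 236 against 303 and 243.

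Ptgs2 is itself counted among genes that respond within minutes to hours of a stimulus. Of 9 immediate early genes measured beside it (Fos, Jun, Egr1 and others), 7 had both libraries labelled positive below all 3 labelled negative, against 5.44% of all genes tested, and 0 passed limma by label. Their summed normalized count was 24733 in HCN3-positive 1 and 8695 in HCN3-positive 2, and 48115, 87053 and 51464 in HCN3-negative 1, 2 and 3, with none at 0. The lowest Ptgs2 was not in the library with the lowest immediate early sum. The part of immediate early activity in the Ptgs2 values was not tested.

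The DNA before the transcription start is shown for the pair of cyclooxygenase genes, whose patterns over the libraries differed, and for Hpgd, which was higher in the same libraries as Ptgs1. RefSeq promoters (GRCm38.p6) were found for 8 of the 10 genes. The lines below give the 250 bases before each start, 5′ to 3′ on the gene's strand, at chr2:36230176-36230425 (plus) for Ptgs1, chr8:56294302-56294551 (plus) for Hpgd and chr1:150099781-150100030 (plus) for Ptgs2. Capitals mark the letters of any motif found.
Ptgs1: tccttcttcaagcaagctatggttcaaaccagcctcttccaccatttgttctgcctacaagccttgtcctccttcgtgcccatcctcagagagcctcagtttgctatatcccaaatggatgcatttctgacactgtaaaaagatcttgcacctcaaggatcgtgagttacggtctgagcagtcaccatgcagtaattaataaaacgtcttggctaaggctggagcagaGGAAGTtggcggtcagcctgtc
Hpgd: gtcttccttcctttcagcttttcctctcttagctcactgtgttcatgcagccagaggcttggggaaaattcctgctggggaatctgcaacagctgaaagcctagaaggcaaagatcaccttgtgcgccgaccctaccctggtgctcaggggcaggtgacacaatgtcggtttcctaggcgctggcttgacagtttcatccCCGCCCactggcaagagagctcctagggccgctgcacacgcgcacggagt
Ptgs2: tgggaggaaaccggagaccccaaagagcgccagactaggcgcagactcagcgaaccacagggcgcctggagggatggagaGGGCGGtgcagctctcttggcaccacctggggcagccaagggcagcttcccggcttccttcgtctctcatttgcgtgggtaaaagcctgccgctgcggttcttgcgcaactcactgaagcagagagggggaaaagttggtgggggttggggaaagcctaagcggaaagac
Both strands were searched for the TATA box TATAAA, the CCAAT box CCAAT, the GC box GGGCGG, the ETS core GGAAGT, the CRE core TGACG, the E-box CACGTG and the AP-1 site TGANTCA, and no 2 of the marked matches overlapped. Ptgs1 held 1 ETS core, from 22 to 17 bases before the start, as did 19.7% of 32851 promoter windows of this length at any place. Hpgd and Ptgs2 held 1 GC box each, from 50 to 45 bases before the start on the opposite strand and from 170 to 165 bases before it on the gene's own strand, and 32.7% of windows held one. The Hpgd window ends at 56294551, upstream of the GENCODE start at 56294585, so its distances are from the RefSeq start. TATAAA, present in 12.4% of windows, was in none of the 8 promoters found. These are matches of letters, not sites shown to be bound.

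Hpgd (chromosome 8, 56294585 to 56321043, plus strand) encodes the dehydrogenase that starts prostaglandin inactivation, and it had the largest fold of the 10 between the sets. Normalized counts were 7688 and 6326 in the first set, in the order HCN3-positive 1 and HCN3-negative 2. In the second set they were 298, 639 and 299, in the order HCN3-positive 2, HCN3-negative 1 and HCN3-negative 3, an order kept below. The lowest library of the first set stood far above the highest of the second, where the library labelled HCN3-negative 1 stood above the other two. The log2 fold change was 4.18 (SE 0.38, limma adjusted p = 0.00100), and with any 1 library left out it stayed between 3.99 and 4.54 (limma adjusted p 0.00222 to 0.0386). In the authors' deposited table the adjusted p was 1.62e-21 for Hpgd, 6.60e-09 for Ptgs1 and 1.93e-06 for Ptgis. No other of the 10 was under 0.05 in the authors' deposited table, which called Hpgd and Ptgs1 on the side of the first set (2 of 10, against 8.1% of 18044 genes) and Ptgis on that of the second (1 of 10, against 6.09%; 14.2% in either direction).

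Ptgis (chromosome 2, 167191805 to 167240604, minus strand) encodes prostacyclin synthase, an enzyme known from vessels and smooth muscle, and was the gene of the 10 that ran against Ptgs1 and Hpgd. It stood at normalized counts of 125 and 49.9 in the first set and of 843, 891 and 517 in the second. The sets did not overlap, and the log2 fold change, first minus second set, was -3.19 (SE 0.54, limma adjusted p = 0.00816). The call was lost without the library labelled HCN3-negative 1 (log2 fold change -3.04, limma adjusted p = 0.0546) and held with any other library left out. By label the means were close, 484 ± 507 (SD, n = 2) and 486 ± 421 (SD, n = 3).

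Ptges (chromosome 2, 30889471 to 30929863, minus strand) encodes the inducible, membrane-bound prostaglandin E synthase. It stood at 3864 and 1208 normalized counts in HCN3-positive 1 and 2 and at 1516, 1199.7 and 727 in HCN3-negative 1, 2 and 3. One library, HCN3-positive 1, stood above the rest, and the other 4 spanned about the same range whichever way they were grouped. The log2 fold change was 0.97 (SE 0.53, limma adjusted p = 0.263) for the first minus the second set and 0.98 (SE 0.61, limma adjusted p = 1.00) for labelled positive minus negative. Without that library they were 0.12 and 0.14.

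The ratio of the terminal synthases split the libraries by set. Per kilobase of merged exon in GENCODE M21, Ptges was at 19.3 and 15.1 times Ptgis in the first set (HCN3-positive 1 and HCN3-negative 2). It was at 0.900, 1.07 and 0.882 times Ptgis in HCN3-positive 2, HCN3-negative 1 and HCN3-negative 3, so that the synthases were near even there. The same per-length ratio of Ptgs1 to Ptgs2 was 282 and 46.1 in the first set and 9.82, 10.8 and 18.1 in the second. Ptgs1 exceeded Ptgs2 in every library. These ratios restate the member values above and were not tested on their own.

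**Figure D2:**
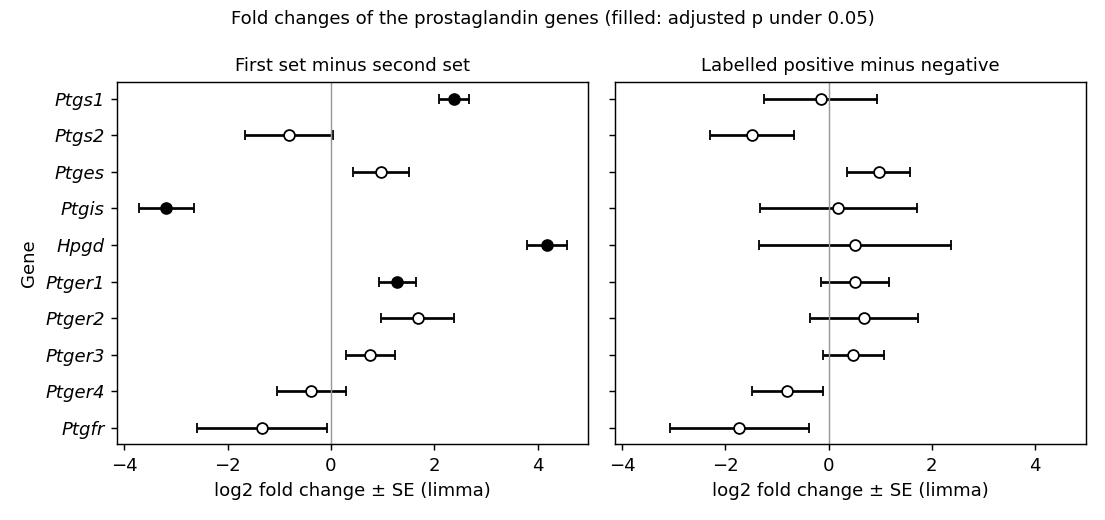
Log2 fold change with its standard error (horizontal) of each of the 10 genes (vertical) between the sets of the deposited table (left) and between the labels (right), from limma on log2(normalized count + 1). Filled points had an adjusted p under 0.05: Ptgs1 at 2.38, Hpgd at 4.18, Ptger1 at 1.29 and Ptgis at -3.19 on the left, and none on the right.

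The prostaglandin E receptors were each measured in every library. Ptger1 (chromosome 8, 83666678 to 83672753, plus strand) encodes EP1, which signals through calcium. Its normalized counts were 2120 and 1088 in the first set and 570.5, 576 and 730.2 in the second, with no overlap. The log2 fold change of 1.29 (SE 0.35) had a limma adjusted p of 0.0434, which rose above 0.05 when any 1 library other than HCN3-negative 2 was left out (0.0640 to 0.203). In the authors' deposited table its adjusted p was 0.113. The libraries are not stated to keep strand, and the Ptger1 values are uncertain.

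Ptger2 and Ptger4 encode EP2 and EP4, which raise cyclic AMP. Ptger2 (chromosome 14, 44988195 to 45003820, plus strand) had normalized counts of 478 and 246 in the first set and 108, 208 and 54.0 in the second (libraries in the same order). The sets did not overlap, but the log2 fold change of 1.68 (SE 0.71) had a limma adjusted p of 0.150. Ptger4 (chromosome 15, 5206661 to 5244187, minus strand) had 354 and 573 in the first set and 404, 339 and 1459 in the second. A single library, HCN3-negative 3, stood apart, and the log2 fold change of -0.38 (SE 0.66, limma adjusted p = 0.740) became 0.28 without it.

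Ptger3 (chromosome 3, 157566892 to 157645888, plus strand) encodes EP3, which lowers cyclic AMP. It had 457 and 239 normalized counts in the first set and 188, 194 and 199.995 in the second. The sets did not overlap and the 3 libraries of the second set were nearly level, yet the log2 fold change of 0.76 (SE 0.47) had a limma adjusted p of 0.314. Of the 10 genes, 5 had the first set wholly above the second (Ptgs1, Hpgd, Ptger1, Ptger2 and Ptger3), where 23.5% of all genes tested did, and Ptgis had it wholly below, where 26.1% did. Together 6 of 10 did not overlap, against 49.6% of all genes. By label the log2 fold changes of Ptger1, Ptger2, Ptger3 and Ptger4 were 0.51 (SE 0.65), 0.69 (SE 1.04), 0.48 (SE 0.59) and -0.80 (SE 0.69), with a limma adjusted p of 1.00 each. With HCN3-positive 1 left out, the first 3 turned negative.

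The mix of EP receptors, leaving out the uncertain Ptger1, was compared per kilobase of merged exon. Ptger4 made up 28.2% of the summed Ptger2, Ptger3 and Ptger4 level in HCN3-positive 1, 58.2% in HCN3-positive 2, 46.7% in HCN3-negative 1, 55.0% in HCN3-negative 2 and 85.2% in HCN3-negative 3. It was the largest of the 3 in 4 libraries. In HCN3-positive 1 Ptger3 was largest at 37.4%, with Ptger2 at 34.4%. The share of Ptger2 was lowest, 2.84%, in HCN3-negative 3.

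Ptgfr (chromosome 3, 151796502 to 151837630, minus strand) encodes the receptor of prostaglandin F, which contracts smooth muscle. HCN3-positive 1 had a normalized count of 8.46, from 6 reads, and HCN3-positive 2 one of 139. The values were 76.6, 194 and 115 in HCN3-negative 1, 2 and 3. The low value in HCN3-positive 1 sets its fold changes, -1.33 (SE 1.25, limma adjusted p = 0.517) between the sets and -1.73 (SE 1.34, limma adjusted p = 1.00) between the labels. Without that library they were 0.85 and 0.22. Without HCN3-negative 2, which leaves HCN3-positive 1 alone in the first set and assumes that it varies like the others, Ptgfr (-3.52, limma adjusted p = 0.0395) and Ptgs2 (-2.29, limma adjusted p = 0.0442) passed as lower there.

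Levels of different genes were set side by side only per kilobase of merged exon. By the median over the 5 libraries the order was Ptgs1 (987 normalized counts per kilobase), Hpgd (380), Ptges (331), Ptgis (226), Ptger1 (156), Ptger4 (121), Ptger3 (61.8), Ptger2 (56.4), Ptgs2 (54.5) and Ptgfr (17.2). Ptgs1 ranked first in 4 libraries and second, after Hpgd, in HCN3-positive 1. Hpgd ranked 1 and 2 in the first set and 4, 4 and 5 in the second, while Ptgis ranked 8 and 10 in the first set and 2, 3 and 3 in the second. For every neighbouring pair in this order the ranges over the libraries overlapped. Within libraries, Ptger3 was above Ptger2 and Ptgs2 above Ptgfr in 5 of 5, and for every other neighbouring pair the order changed between libraries.

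Markers of other cell types moved with several of these genes. In a bulk library, fewer cells of a type and less RNA per cell cannot be told apart. Of 10 macrophage and leukocyte markers (Csf1r, C1qb, Ptprc and others), 10 were higher in the first set by limma, with a summed normalized count of 352354 and 473120.2 there and 875 to 2712 in the second set, and none was at 0. Ptgs1 and Hpgd were higher in those same libraries. Within the first set Ptgs1 was at 9468 and 12291, and Hpgd at 7688 and 6326, in HCN3-positive 1 and HCN3-negative 2. Csf1r (92160 and 139878) and the summed markers ranked these libraries as Ptgs1 did. So did all the other markers of the list except Ptprc and Tyrobp. Only Ptprc (31182 and 22996) and Tyrobp (27243 and 24671) ranked them as Hpgd did. The part of macrophage content in the Ptgs1 and Hpgd values was not tested.

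Ptgis was high in the libraries that were high in stroma and muscle. All 9 stroma and fibroblast markers were lower in the first set, with a sum of 11347 and 10476 there against 94782 to 212448 in the second. Of 8 smooth muscle markers 7 were lower, with a sum of 6192 and 4249.5 against 22652 to 119298, and Acta2 stood at 2568 and 1549 against 45109, 57079 and 9258. Of 8 endothelial markers 8 were lower, with a sum of 6425 and 6653 against 25459 to 91963. None of these markers was at 0 in any library, and the part of these cells in the Ptgis values was not tested.

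The single high libraries of Ptges and Ptger4 had high epithelial or glomerular markers. The summed level of 10 collecting duct markers was 74633 in HCN3-positive 1 and 10561 to 27533 in the other libraries, with none at 0. Aqp2 alone made up 34676 of it, while Calb1 and Ret were highest in HCN3-positive 2. In limma 2 of these 10 markers were higher in the first set and 0 passed by label. By label 4 of the 10 had HCN3-positive wholly above HCN3-negative, as did 5.34% of all genes tested. The summed level of 7 loop of Henle and distal tubule markers was also highest in HCN3-positive 1, at 43819 against 17619 to 23719. Slc12a1 alone made up 29812 of it, while Umod and Pou3f3 were highest in HCN3-positive 2. Of these 7, 4 had HCN3-positive wholly above HCN3-negative, and 0 passed limma by label. Ptges, Ptger1, Ptger2, Ptger3 and Hpgd were all highest in HCN3-positive 1. The summed level of 6 podocyte markers was 307419 in HCN3-negative 3, where Ptger4 was highest, and 6662 to 48978 elsewhere, with none at 0 and with 5 of 6 lower in the first set. The same library was highest in the summed 8 endothelial markers, at 91963 against 6425 to 42588. It was also highest in the sum of 6 erythroid markers, at 55144 against 536 to 3736. Alas2 alone made up 50382 of that sum, while Epor was highest in HCN3-negative 2 (1345 against 305 in HCN3-negative 3). Of the erythroid markers 0 passed between the sets or labels. Urothelial markers (9 genes) summed to 12689 in HCN3-negative 1, which had the highest Hpgd of the second set, and to 4540.3 to 10759.5 elsewhere. Of those 9, 1 was higher in the first set, and Trp63 was at 0 in HCN3-negative 2. The part of these cells in the values was not tested.

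**Figure D3:**
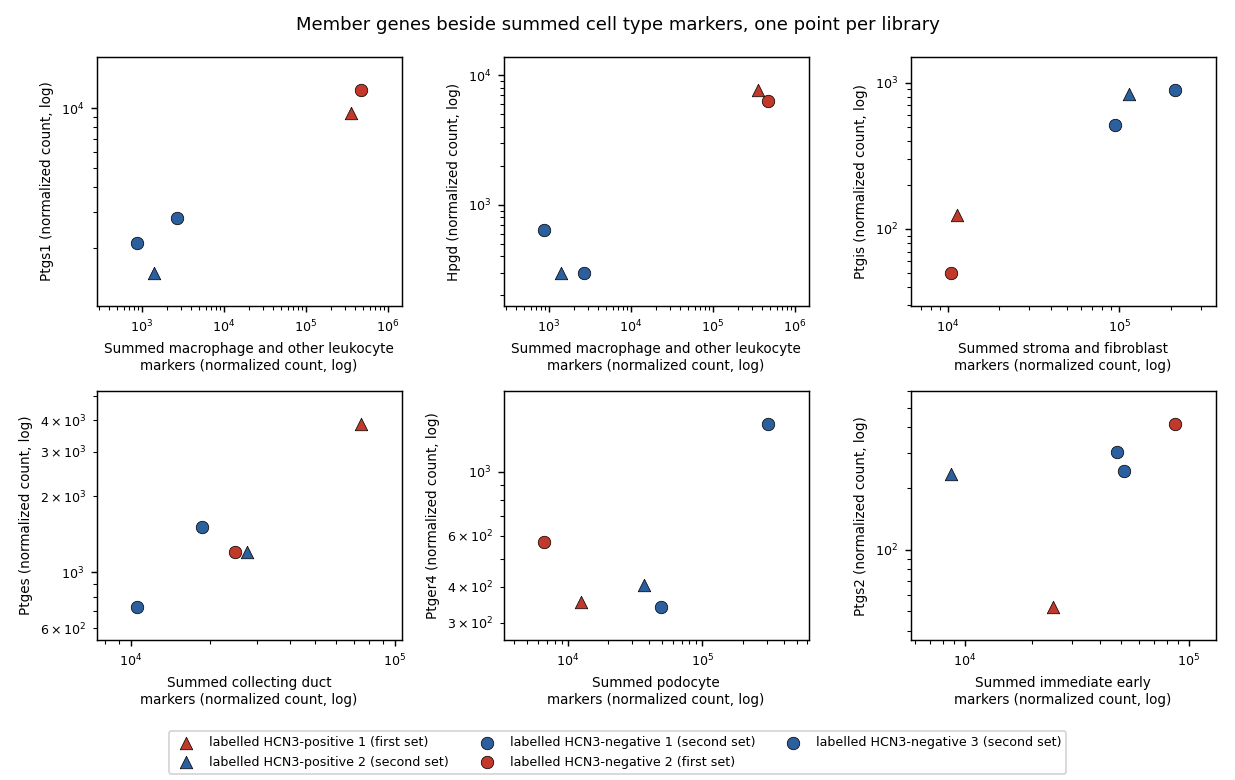
Normalized count of 6 prostaglandin genes (vertical, log scale) against the summed normalized count of a marker list (horizontal, log scale), with 1 point per library. Red is the first set, blue the second, triangles are labelled HCN3-positive and circles HCN3-negative; Ptgs1 and Hpgd are high where the macrophage sum is 352354 or more, Ptgis is high where the stroma sum is 94782 or more, and Ptgs2 is lowest in a library that is not lowest in immediate early genes.

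Platelets and mast cells also make prostanoids. Of 7 platelet and megakaryocyte markers 6 were in the table, with a sum of 10531 and 22187 in the first set and 140.2 to 303 in the second. In the first set nearly all of it was Pf4 (10328 and 21971). In limma 1 was higher and 1 lower in the first set, and 1 or 2 were at 0 in every library except HCN3-negative 3. The mast cell markers (7 in the table, 5 tested) summed to 791 and 660 in the first set and to 281 to 979 in the second. None of the 5 passed between the sets or labels, and 6 of the 7 were at 0 in HCN3-negative 1.

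The other genes of the pathway were counted by list. Of 11 other prostanoid synthase genes 3 passed as higher in the first set, 0 as lower and 8 did not pass, against 10.6% of all genes tested higher and 9.88% lower, with a median log2 fold change of 0.08 against -0.07 over all genes tested. Hpgds, which makes prostaglandin D in blood cells, was at 5256 and 7670.0 in the first set and 100.1, 74.0 and 53.0 in the second, with a log2 fold change of 6.42 (SE 0.41, limma adjusted p = 0.000385). Tbxas1, the thromboxane synthase, was at 2316 and 5631 against 280.4, 217 and 494, a 12.0-fold difference in means (limma adjusted p = 0.00425). Fam213b, a prostaglandin F synthase, was 3.20-fold higher (limma adjusted p = 0.0229) but lost the call without any 1 library other than HCN3-positive 1 (0.0554 to 0.0967). These synthases were higher in the libraries rich in macrophage markers, whose part was not tested.

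Of the other prostanoid receptor genes 2 were tested, and 1 passed. Tbxa2r, the thromboxane receptor, ran opposite to its synthase, with 0 reads in HCN3-positive 1, a normalized count of 67.7 in HCN3-negative 2, and 531, 656 and 1149.7 in the second set. Its mean was 23.0-fold higher in the second set, with a log2 fold change of -6.48 (SE 1.62, limma adjusted p = 0.0324). In the authors' deposited table its adjusted p was 7.2e-05. On the recovered reads it did not pass (adjusted p 0.0791 in edgeR, 0.0689 in DESeq2 and 0.0565 in limma-voom), and limma lost it without HCN3-positive 2, HCN3-negative 1 or HCN3-negative 3 (0.0933 to 0.112). Ptgir, the prostacyclin receptor gene and the other tested, named after its values were seen, was at 400.3 and 105 in the first set and 214, 553 and 177 in the second and did not pass (limma adjusted p = 0.749).

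Upstream and downstream steps had shares of calls near those of all genes tested, of which 10.6% were higher in the first set and 9.88% lower. Of 9 arachidonate-releasing phospholipase genes tested 1 was higher and 0 lower: the lysosomal phospholipase Pla2g15, at 5614.5 and 7423 against 421, 256 and 421 (log2 fold change 4.17, SE 0.32, limma adjusted p = 0.000592). The cytosolic phospholipase Pla2g4a, a main source of arachidonate for cyclooxygenases and also named after its values were seen, was at 3339 and 3612 against 2191, 2717 and 1519 and did not pass (limma adjusted p = 0.11). Of 8 transport and breakdown genes 1 was higher, the reductase gene Ptgr2 (1.07, SE 0.24, limma adjusted p = 0.0207). The transporter gene Slco3a1 was the 1 lower (-1.25, SE 0.27, limma adjusted p = 0.0206). The call of Ptgr2 was lost without any library other than HCN3-negative 3 (0.0689 to 0.0967), and so was that of Slco3a1 (0.0628 to 0.0848).

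The leukotriene branch, which competes for arachidonate through lipoxygenases, had the highest median of the lists, 1.40 on the log2 scale. Of these 12, 5 passed as higher in the first set, where 10.6% of all genes tested did, and 0 as lower, where 9.88% did. Alox5ap, which presents arachidonate to 5-lipoxygenase, was at 13941 and 9538 in the first set and 204, 163 and 260 in the second (log2 fold change 5.80, SE 0.31, limma adjusted p = 0.000279). The receptor genes Ltb4r1 and Cysltr1 and the synthase gene Ltc4s were 71.9-fold, 105-fold and 50.4-fold higher in means (limma adjusted p 0.00247, 0.00317 and 0.00900). Without HCN3-positive 1 the calls of Cysltr1 (0.0593) and Ltc4s (0.0659) were lost, and that of Ltc4s also without HCN3-negative 2 (0.0686). The fifth was Alox5 itself, likewise chosen with its values known, at 1389.9 and 856 against 2.97, 41.9 and 54.0 (limma adjusted p = 0.0173).

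**Figure D4:**
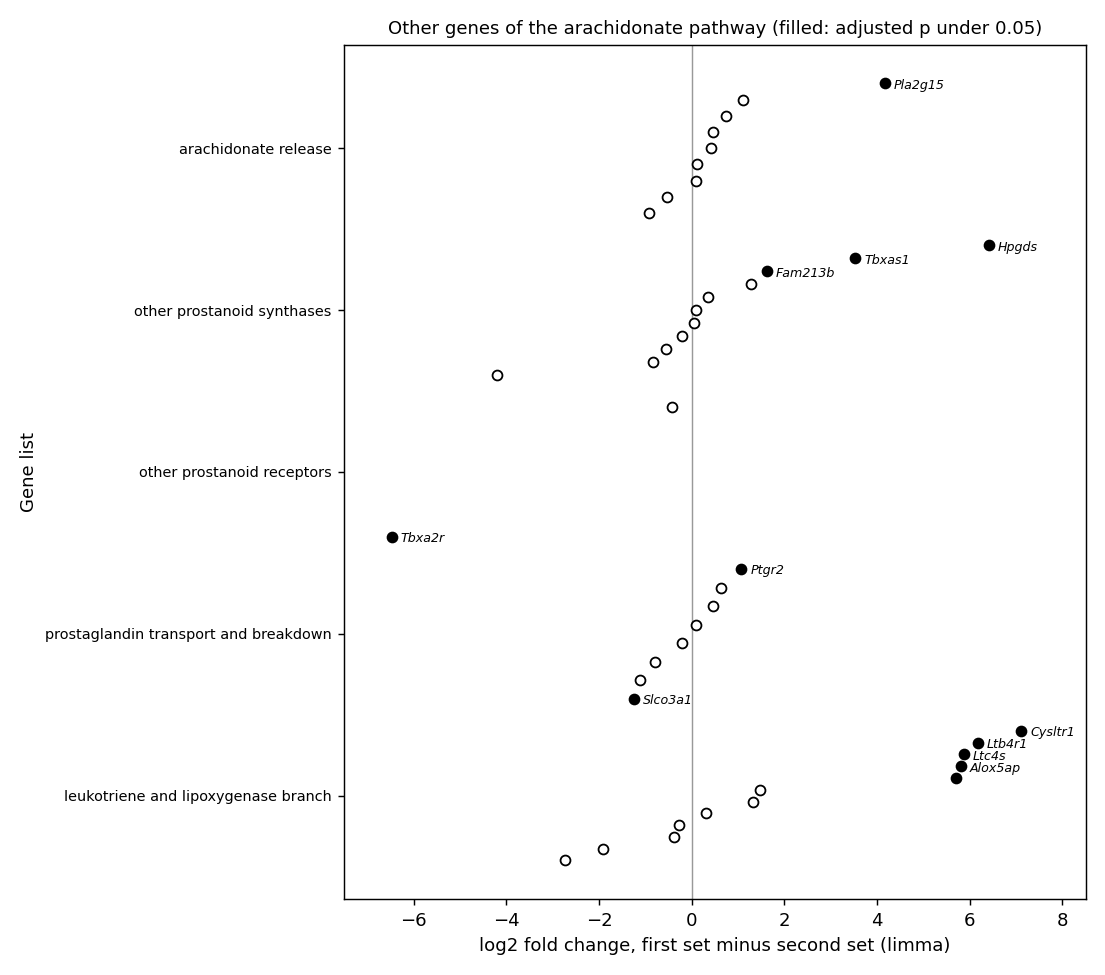
Log2 fold change, first minus second set (horizontal), of the tested genes of 5 lists of the arachidonate pathway (vertical, 1 point per gene). Filled points had a limma adjusted p under 0.05 and all but 1 of them are named; Hpgds at 6.42 and Cysltr1 at 7.11 lie farthest right, and Tbxa2r at -6.48 farthest left.

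Between the labels 0 genes of any of these lists passed limma. The gene with the smallest unadjusted p in each list was Pla2g3 (log2 fold change 2.55, SE 1.2), Ptgds (1.23, SE 1.11), Tbxa2r (-4.02, SE 2.88), the organic anion transporter gene Slc22a6 (-2.34, SE 0.71) and Alox15 (1.02, SE 0.71), all with a limma adjusted p of 1.00. Slc22a6, which carries prostaglandins among many anions, is also a proximal tubule marker. HCN3-positive 1 and 2 had 265 and 516, and HCN3-negative 1, 2 and 3 had 898, 3937 and 1859, without overlap. Of 8 proximal tubule markers 7 had the same gap by label, against 5.44% of all genes tested with HCN3-positive below. The 8 had a sum of 4395 and 6647 against 9998 to 32739, 0 of 8 passed limma, and Slc5a2 was at 0 in HCN3-positive 1. Their part in the Slc22a6 values was not tested.

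The genes with the most similar profile were found among 12931 named genes with a mean of at least 50, by Euclidean distance between log2(normalized count + 1) profiles over the 5 libraries, each centred on its mean. Nearest to Ptgs1 were Ehd4 (distance 0.15), Tmem229b (0.23) and Dtx3l (0.27), and nearest to Hpgd were Rab32 (0.41), Pik3cd (0.47) and Adcy7 (0.49). Nearest to Ptgis were Nkd2 (0.29), Dpysl3 (0.43) and Fam132b (0.53). For Ptger3 the distances were smallest, with 0.11 to each of Cmip, Klhdc1 and Rab5b. The nearest gene was Slc25a21 for Ptgs2 (0.31), Ckmt1 for Ptges (0.28), Zfp951 for Ptger1 (0.17), Eml6 for Ptger2 (0.38), Slc2a12 for Ptger4 (0.42) and Susd2 for Ptgfr (0.45). With only 5 libraries many profiles resemble each other, so these distances are a description and carry no test.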

How the data were processed

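Cells were sorted with an antibody against HCN3, and RNA was amplified with a Clontech cDNA kit and Nextera XT, per the labels' protocols, which do not state that strand was kept. The submitters' processing notes name TopHat2 2.0.11, HTSeq 0.6.1p2, DESeq 1.18.0 and mm10. The gene annotation is one that the sources used here do not give. Deposited signal columns were taken to hold the authors' counts divided by a size factor per library, which their headers do not state. The authors' deposited table also holds the ratio (fold) of the means of 2 sets, its log2, a p-value and an adjusted p-value. Dividing by the smallest value above 0 gave whole reads for 100% of values (tolerance 0.01). The 3 summary rows of the read counter made up 23.2% to 32.8% of all reads and were left out. Every pair of libraries differed by more than sampling noise, with a chi-square of at least 98.3 per degree of freedom. Pairs within a set were at 98.3 to 236, and pairs across the sets at 609 to 743. The p-values between the sets assume a division made without regard to these values, which cannot be checked here.

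The main test was limma 3.58.1 (trend, R 4.3.3) on log2(normalized count + 1) over the 16579 genes whose mean reached 5. P-values were adjusted by Benjamini-Hochberg and called under 0.05. On that scale the added 1 shrinks the fold of a low gene, but a library near 0 can still enlarge it. By label, Tbxa2r, with 0 reads in HCN3-positive 1, was at -4.02 in limma and -1.17 in edgeR. The recovered reads also went through edgeR 4.0.16, DESeq2 1.42.0 and limma-voom as alternatives, together with pseudocounts of 0.5 and 5, other filters, TMM scaling, added model terms and leaving out each library. The fits were also run on simulated data whose spread was taken from the division by set. This leaves the difference between the sets out of the labelled groups, so it says little about the label fits. Genes to name were all 10 members and, per pathway list, up to 4 genes past the threshold by p, or the 1 or 2 with the smallest p. Floors of 3 reads cover counting error only, since PCR copies are not independent molecules. A comparison that bears on Ptger1 is not reported here. Members, lists and the sets were chosen with earlier results of these data known.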

Additional observations from a re-analysis of the deposited data

How the results depend on the processing

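With 5 libraries in groups of 2 and 3, single libraries carry much weight. Leaving out 1 library at a time, the genes called between the sets numbered 1241 to 2829 in place of 3396 (678 to 1644 higher in the first set, 563 to 1682 in the second), and 2 to 6 of the 10 members were called in place of 4. With limma-voom 851 genes were higher in the second set in place of 1638, while DESeq2 called 10 genes between the labels in place of 0. Leaving out 1 library, log2 fold changes by label ranged from -1.49 to 1.178 for Ptgs1, -0.43 to 1.46 for Ptger1, -0.38 to 1.76 for Ptger2, -0.16 to 1.12 for Ptger3, -1.18 to 1.56 for Ptgis, -3.68 to 0.22 for Ptgfr, -1.83 to 2.85 for Hpgd and -8.54 to 0.51 for Tbxa2r. Between the sets they ranged from -2.29 to 0.68 for Ptgs2, -0.77 to 0.28 for Ptger4 and -3.52 to 0.85 for Ptgfr. By label, Ptgis was at -0.0058 in DESeq2, and Hpgd at -0.19 with the table's set as a term; the cause was not tested. With the label as a term the Ptger1 call between the sets was lost (limma adjusted p 0.0735).

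Deviations from the group means correlated at -0.53 for the libraries numbered 1 in the titles and -0.69 for those numbered 2. With only 2 libraries labelled positive, their deviations mirror each other, so each value only reverses that of the other positive library. Whether libraries of the same number came from the same pool cannot be told from these values. With the replicate number as a block, limma called 2827 genes between the sets and 0 between the labels. Under the block Hpgd by label was at -0.41, Ptger4 between the sets at 0.28, and the limma adjusted p between the sets was 0.0547 for Ptger1, 0.0546 for Fam213b and 0.0543 for Tbxa2r. Depth limits Ptgfr most, at 6 reads in HCN3-positive 1; the next lowest count of any member was 37 reads, for Ptgs2 in the same library.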
